A study of Mus musculus with 27 samples.

Results

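Among the 22855 genes counted in both tissues, 9 genes of the sarcomeric thin filament were selected by symbol: the troponin genes Tnni1, Tnni3, Tnnt1, Tnnt2, and Tnnc1, the tropomyosin genes Tpm1 and Tpm2, and the sarcomeric actin genes Actc1 and Acta1. RNA-Seq was performed on whole hearts and on PDGFRα cardiac fibroblasts, which were isolated from hearts by flow cytometry, of C57Bl/6 mice, for which the labels name no transgene or treatment. Hearts were taken at postnatal day 1, at 4 weeks, at 14 weeks, and from older mice of 1 year and 1.5 years. There were 3 whole heart samples at each age (replicates 1 to 3), and fibroblast samples numbered 3 at postnatal day 1 and at 4 weeks and 2 at each later age (replicates 4 and 6 at 14 weeks, 4 and 5 at 1 year and at 1.5 years), for a total of 27. The study describes 3 fibroblast sets per age from different hearts, and the sex of the animals is not in the labels. The comparison asked how the thin filament genes, which include pairs known for a fetal to adult switch, differed among the 5 ages of the heart, and whether the same was seen in sorted fibroblasts.

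The thin filament is built from actin and carries tropomyosin and the troponin complex. Troponin C binds calcium, troponin I holds the filament in the relaxed state, and troponin T attaches the complex to tropomyosin, which moves on the filament and lets myosin bind. The rodent heart around birth is known to contain slow skeletal troponin I, the product of Tnni1, which is replaced by cardiac troponin I, the product of Tnni3, as the heart matures.

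The total was 46091271 to 67984404 counts in whole hearts and 54615898 to 76758831 in cardiac fibroblasts, and levels are given as CPM, the counts of a gene divided by the library total and multiplied by a constant, after scaling of the libraries by the TMM method. Genes of the mitochondrial genome took 10.8% to 34.5% of the counts of a heart. The 10 cardiomyocyte markers, which include no thin filament gene, summed to between 33153 and 97950.3 CPM in every heart, and the 8 fibroblast markers to between 19198 and 39488 CPM in every fibroblast sample, against 733 to 1475 in hearts. Xist RNA, made from the inactive X chromosome, was at most 0.570 CPM at 14 weeks and at 1 year, and the Y-linked Ddx3y was at most 0.397 CPM at 1.5 years, so that sex and age cannot be told apart between 1.5 years and the 2 preceding ages. In every sample of postnatal day 1 and of 4 weeks Xist was at least 6.48 CPM and Ddx3y at least 1.64 CPM. Make-up by sex and age thus also cannot be told apart between 4 and 14 weeks or between postnatal day 1 and 1.5 years. In bulk samples, fewer cells of a type and less RNA per cell cannot be told apart. Differences between ages are log2 fold changes with a Benjamini-Hochberg adjusted p from edgeR's quasi-likelihood F test over all genes tested, 17995 in whole hearts and 18759 in fibroblasts, and a gene is said to rise, fall, or differ at an adjusted p under 0.05.

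Across the 5 ages of whole heart, 8 of the 9 genes differed, against 34.3% of all genes tested. The exception was Tnnt2, the gene of cardiac troponin T (adjusted p = 0.0969). From postnatal day 1 to 4 weeks, 6 of the 9 changed, against 18.2% of all genes. Tnni3, Tpm1, Actc1, and Acta1 rose, a direction taken by 12.1% of all genes, and Tnni1 and Tpm2 fell, as did 6.1% of all genes. The median log2 fold change was 0.33 over the 9 genes and -0.09 over all genes. With library size as the only scaling, the median of all genes in this comparison moved by -0.51, and Tnnt2 and Tnnc1 changed sign, to -0.38 and -0.17.

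**Figure D1:**
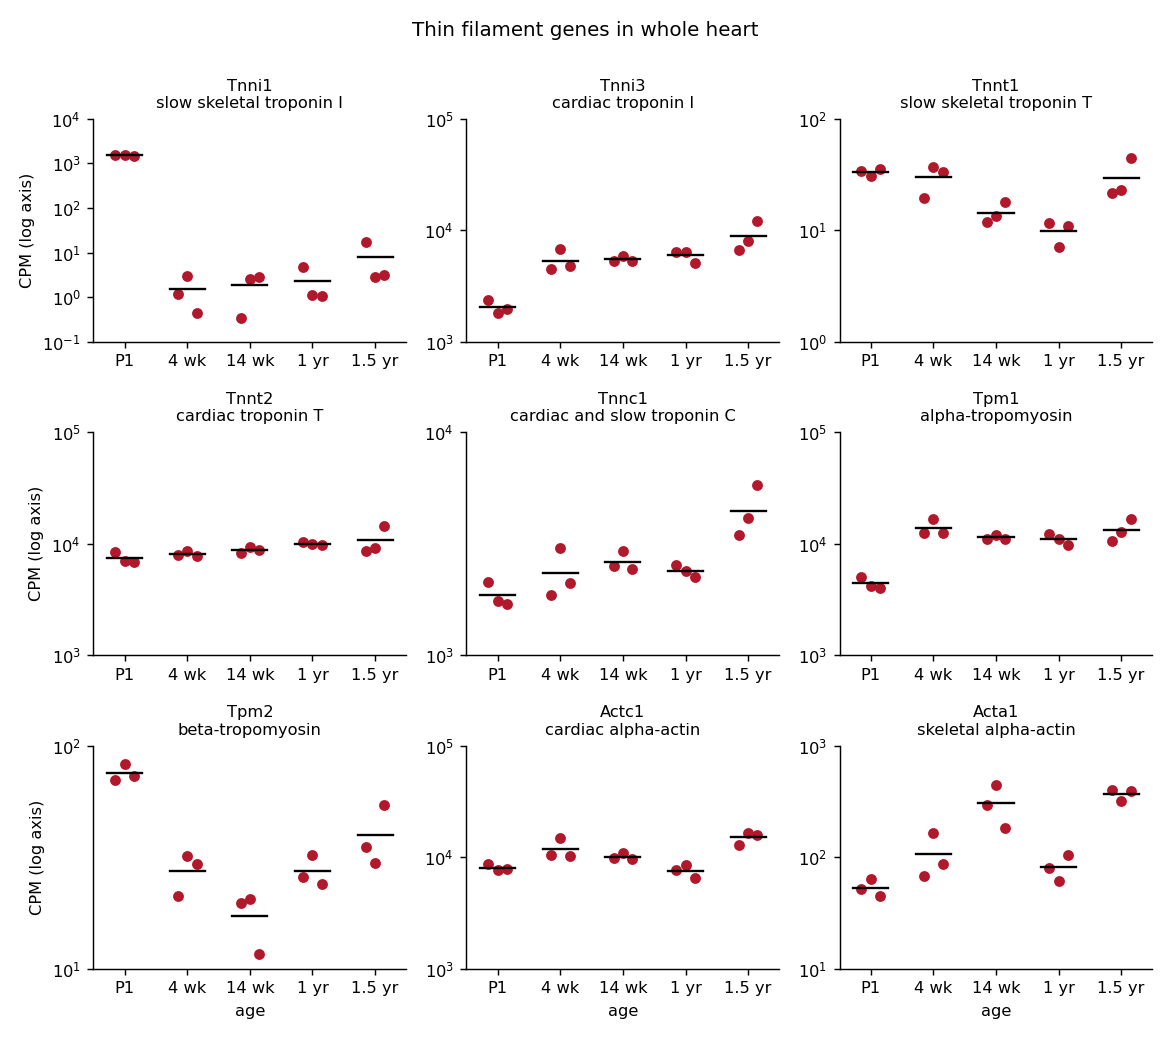
CPM on a log axis of the 9 thin filament genes in each whole heart sample at postnatal day 1 (P1), 4 and 14 weeks, and 1 and 1.5 years, where points are samples, placed by replicate number, and lines are means of 3 samples. Tnni1 lies at 1459.99 CPM or above at postnatal day 1 and at 17.6 or below at all later ages, whereas Tnni3 and Tpm1 are higher at every later age than at postnatal day 1.

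Troponin I is the subunit that inhibits contraction at low calcium. Tnni1 lies on the plus strand at chr1:135779434-135810989 and Tnni3 on the minus strand at chr7:4518305-4524229 (GRCm38, GENCODE M21), and the counts are of reads on their exons. The windows around the start sites of this pair, whose levels moved in opposite directions after birth, are shown for the plus strand of Tnni1 at chr1:135799171-135799470 and the minus strand of Tnni3 at chr7:4522479-4522778, from 250 bases before to 50 bases after the RefSeq start on GRCm38.p6. Both windows lie inside the genes as GENCODE draws them, and that of Tnni1 is for the more upstream of its RefSeq starts. Capitals mark CAGCTG, an E-box bound by factors of the MyoD and HAND families, in Tnni1, and GATAA read on the opposite strand, the core of a GATA factor site, in Tnni3.

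Tnni1: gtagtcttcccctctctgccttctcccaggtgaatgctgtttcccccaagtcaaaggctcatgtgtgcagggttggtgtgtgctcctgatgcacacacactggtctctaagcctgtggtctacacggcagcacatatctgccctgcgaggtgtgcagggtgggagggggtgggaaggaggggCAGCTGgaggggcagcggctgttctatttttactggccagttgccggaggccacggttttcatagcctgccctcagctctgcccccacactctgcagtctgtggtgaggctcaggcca
Tnni3: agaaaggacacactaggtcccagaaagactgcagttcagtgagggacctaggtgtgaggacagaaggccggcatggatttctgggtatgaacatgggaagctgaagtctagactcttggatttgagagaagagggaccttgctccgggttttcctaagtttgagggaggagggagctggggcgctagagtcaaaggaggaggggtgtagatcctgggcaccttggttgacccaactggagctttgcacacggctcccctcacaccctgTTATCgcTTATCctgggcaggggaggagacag

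The letters CAGCTG occurred in 16.3% of 32851 such windows on either strand and GATAA in 25.4%. CAGCTG began 68 bases before the start of Tnni1, and both matches of GATAA lay after the start of Tnni3.

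At postnatal day 1, Tnni1 was at 1559.7, 1525, and 1459.99 CPM in replicates 1 to 3. It was at 1.16, 2.98, and 0.452 CPM at 4 weeks. The 2 ages did not overlap, and Tnni1 fell 987-fold (log2 fold change -9.95, SE 1.06, adjusted p = 4.4e-06). At the later ages it lay between 0.338 and 4.86 CPM, apart from replicate 1 of 1.5 years with 17.6. The ranges of each pair of neighbours in the order of the later means overlapped.

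For Tnni3, the 3 hearts of postnatal day 1 gave 2349, 1797, and 1977 CPM and those of 4 weeks 4487, 6778, and 4806. All hearts of 4 weeks were higher (log2 fold change 1.39, SE 0.21, adjusted p = 1.6e-04). Tnni3 overlaps Dnaaf3, a gene for assembly of ciliary dynein arms, on the same strand, whose mean was 1.38 CPM at postnatal day 1 and 8.56 at 4 weeks (log2 fold change 2.63, SE 0.93, adjusted p = 0.0612). The mean of Tnni3 was 5492 ± 341 (SD, n = 3) CPM at 14 weeks, 5968 ± 747 (SD, n = 3) at 1 year, and 8885 ± 2806 (SD, n = 3) at 1.5 years.

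Counts of each gene were divided by the length of its longest transcript to compare the genes of a pair. Tnni1 was 34.5%, 40.2%, and 36.9% of Tnni1 plus Tnni3 in the hearts of postnatal day 1. At 4 weeks its share was 0.0206%, 0.0349%, and 0.00746%. The mean share was thus 37.2% ± 2.88 (SD, n = 3) and then 0.0210% ± 0.0137 (SD, n = 3), with no overlap (exact permutation test, two-sided, p = 0.1, the smallest that 3 against 3 samples can give). It was 0.0268% ± 0.0191 (SD, n = 3) at 14 weeks, 0.0303% ± 0.0256 (SD, n = 3) at 1 year, and 0.0866% ± 0.107 (SD, n = 3) at 1.5 years. The last mean rests on replicate 1, with 0.210%. The other hearts of that age had 0.0285% and 0.0212%, and the difference from 14 weeks did not pass (exact permutation test, two-sided, p = 0.6). Without replicate 1 the difference of 1.5 years minus 14 weeks was -0.0019 percentage points.

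**Figure D2:**
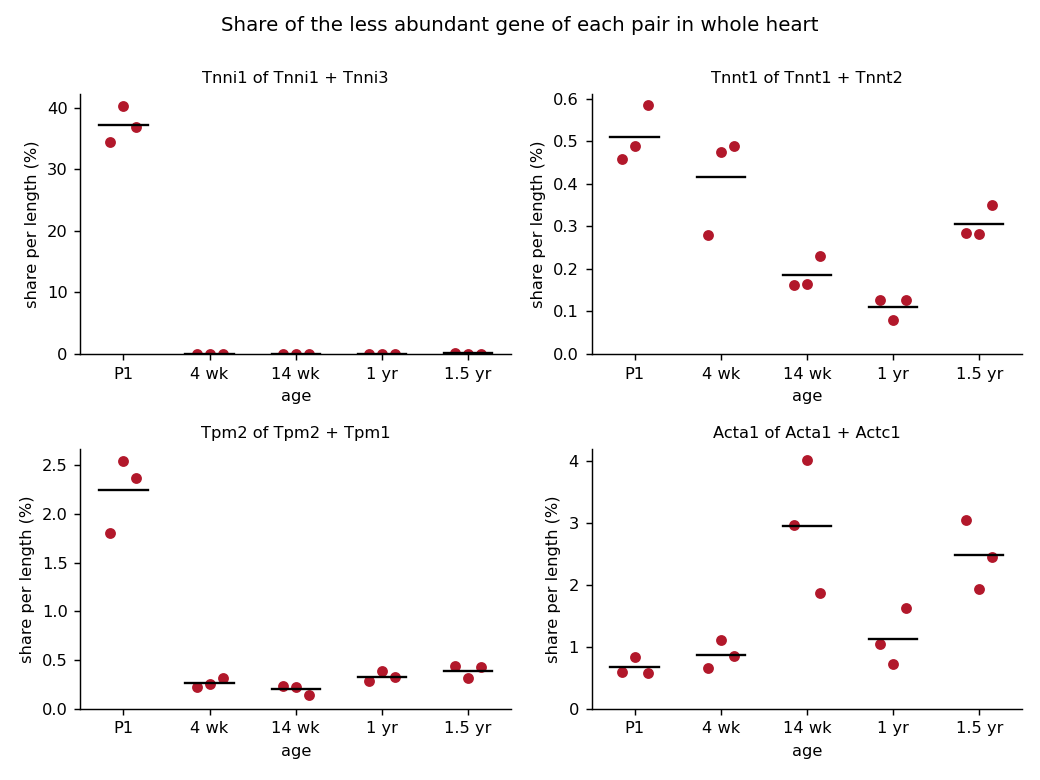
Share, per transcript length and in percent, of 1 gene in each pair of related genes in whole heart, where points are samples and lines are means of 3 samples per age, and the vertical axes differ and start at 0. The share of Tnni1 is at least 34.5% at postnatal day 1 and at most 0.210% later, and the mean share of Acta1 is highest at 14 weeks, at 2.96%, and at 1.5 years, at 2.48%.

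Troponin T links the complex to tropomyosin. Tnnt2, the cardiac gene, lies at chr1:135836354-135852260 on the plus strand. Its level was 8400.3, 7013, and 6826 CPM at postnatal day 1 and 7872, 8696, and 7722 at 4 weeks, with overlap of the 2 ages (log2 fold change 0.13, SE 0.17, adjusted p = 0.687). At 1.5 years it was 8541, 9149, and 14410.4 CPM, higher than at postnatal day 1 by 0.53 on the log2 scale (SE 0.17, adjusted p = 0.0274). This call was lost without replicate 2 or 3 of postnatal day 1 or replicate 3 of 1.5 years (adjusted p from 0.0741 to 0.176), and the value was -0.08 by library size and -0.05 with offsets for transcript length. Reads were counted per gene, so the use of alternative exons of Tnnt2 was not analysed here.

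Tnnt1, the slow skeletal muscle gene, lies at chr7:4504570-4516382 on the minus strand, 1922 bases from Tnni3. It was at 34.1, 30.4, and 35.5 CPM at postnatal day 1 and at 19.5, 36.7, and 33.5 at 4 weeks, which overlapped (log2 fold change -0.16, SE 0.30, adjusted p = 0.790). The 3 hearts were lower at 14 weeks, at 11.9, 13.5, and 17.8 CPM, and at 1 year, at 11.6, 7.03, and 10.9, with no overlap with 4 weeks, but the step from 4 to 14 weeks had an adjusted p of 0.106 (log2 fold change -1.05, SE 0.30). At 1.5 years Tnnt1 was at 21.5, 22.9, and 44.7 CPM, above every heart of 14 weeks and of 1 year. Per length, its share of Tnnt1 plus Tnnt2 was at most 0.586% in any heart.

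Tnnc1 encodes the troponin C shared by heart and slow muscle, and lies at chr14:31208312-31211729 within the span of Nisch, which is on the opposite strand. It was at 2122, 1746, and 1698 CPM at postnatal day 1 and at 1855, 3038, and 2119 at 4 weeks. The ages overlapped and the change did not pass the test (log2 fold change 0.33, SE 0.20, adjusted p = 0.271). Nisch fell over the same interval, from a mean of 342 to 235 CPM (log2 fold change -0.54, SE 0.17, adjusted p = 0.0329). Whether reads of the 2 genes were separated by strand is not given in the sources used here.

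Tropomyosin lies along the actin filament and covers the sites to which myosin binds. Tpm1, the α-tropomyosin gene (minus strand of chr9:67022590-67049406), was at 5049, 4222, and 3987 CPM at postnatal day 1 and at 12395, 16677, and 12389 at 4 weeks. All 3 hearts of 4 weeks were higher (log2 fold change 1.64, SE 0.18, adjusted p = 6.2e-06), and the means stayed between 11034.5 and 13820.4 CPM afterward, with overlap of neighbours when these 4 ages are ordered by their means, although every heart of 14 weeks was below every heart of 4 weeks. Tpm2, the β-tropomyosin gene (minus strand of chr4:43514711-43523765), moved the other way. It was at 70.02, 83.1, and 72.9 CPM at postnatal day 1 and at 21.2, 32.0, and 29.4 at 4 weeks, a fall of 2.73-fold without overlap (log2 fold change -1.45, SE 0.25, adjusted p = 6.0e-04). The share of Tpm2 in Tpm1 plus Tpm2, per length, was 2.24% ± 0.385 (SD, n = 3) at postnatal day 1 and 0.265% ± 0.0449 (SD, n = 3) at 4 weeks (exact permutation test, two-sided, p = 0.1). Tpm1 has 16 transcripts in the annotation, of 887 to 2890 bases, which the counts do not separate.

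The sarcomeric actins are the cardiac gene Actc1 (minus strand of chr2:114047282-114053548) and the skeletal gene Acta1 (minus strand of chr8:123891769-123894751). Actc1 and Acta1 were the members with a CArG box, the site of serum response factor, in the window around the RefSeq start, and both windows are printed because the CArG box was found in 1.63% of all windows. They cover the minus strand of chr2:114052826-114053125 and of chr8:123894726-123895025 (GRCm38.p6). Capitals mark the CArG box and TATAAA in both and, in Acta1, also CAGCTG and CATTCC, the core of a TEAD factor site.

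Actc1: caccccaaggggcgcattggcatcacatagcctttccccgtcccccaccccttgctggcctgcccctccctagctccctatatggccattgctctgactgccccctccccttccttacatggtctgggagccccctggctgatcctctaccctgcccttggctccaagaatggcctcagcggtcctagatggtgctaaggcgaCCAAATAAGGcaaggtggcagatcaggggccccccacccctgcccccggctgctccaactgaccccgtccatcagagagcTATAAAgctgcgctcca
Acta1: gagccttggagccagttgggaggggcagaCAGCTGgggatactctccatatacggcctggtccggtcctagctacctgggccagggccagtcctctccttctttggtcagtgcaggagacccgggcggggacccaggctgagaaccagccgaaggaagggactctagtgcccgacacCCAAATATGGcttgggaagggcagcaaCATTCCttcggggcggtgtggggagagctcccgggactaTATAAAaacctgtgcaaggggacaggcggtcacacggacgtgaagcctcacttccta

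The CArG box began 47 bases before the RefSeq start of Actc1 and 73 bases before that of Acta1. TATAAA was 33 bases after the RefSeq start of Actc1 and 7 bases before that of Acta1. The window of Actc1 lies inside the gene as GENCODE draws it, so these distances hold for the RefSeq start only. CATTCC was in 14.7% of all windows, among them also those of Tnnt2, Tpm1, and Tnnc1, and TATAAA in 13.6%, among them also that of Tnnt1. CAGCTG was further found in Tnnt2 and Tpm2 and GATAA in Tnnt2, and no member had a MEF2 site, which occurred in 3.19% of windows. Both strands were searched, and no matches in a member's window overlapped.

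Actc1 was at 8735, 7707, and 7769.6 CPM at postnatal day 1 and at 10407, 14921, and 10187 at 4 weeks, without overlap (log2 fold change 0.55, SE 0.17, adjusted p = 0.0274). By library size alone this change was 0.04 (adjusted p = 0.873), and it did not pass without replicate 2 or 3 of postnatal day 1 or replicate 2 of 4 weeks (adjusted p from 0.103 to 0.162). Acta1 was at 51.5, 64.2, and 44.8 CPM and then at 67.3, 164, and 86.9, also without overlap (log2 fold change 0.99, SE 0.32, adjusted p = 0.0434). Its rise did not pass by library size (0.48, adjusted p = 0.295), with length offsets (0.83, adjusted p = 0.0689), or without any 1 heart of postnatal day 1 or replicate 2 of 4 weeks (adjusted p from 0.0575 to 0.270). Replicate 2 of 4 weeks had the highest level of each of the 9 genes at that age, and its 5 atrial markers summed to 511 CPM, against 149 and 131 in replicates 1 and 3. The part of atrial tissue in these values was not tested.

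In the later hearts Acta1 moved in both directions. It was at 293, 448, and 182 CPM at 14 weeks, at 79.9, 60.7, and 104 at 1 year, and at 401, 317, and 390.4 at 1.5 years. The ages of 14 weeks and of 1.5 years lay above every heart of 4 weeks and of 1 year. Acta1 rose from 4 to 14 weeks by 1.54 (SE 0.33, adjusted p = 0.0252), the only change among the 9 genes, against 1.61% of all genes changed and 0.756% raised. It fell to 1 year by 1.91 on the log2 scale (SE 0.33, adjusted p = 0.0158), again alone, against 0.972% of all genes changed and 0.583% lowered. It then rose to 1.5 years by 2.18 (SE 0.33, adjusted p = 0.00451). The first of these steps did not pass by library size (1.26, adjusted p = 0.0517), with only the 2 ages fitted (adjusted p = 0.0771), or without replicate 1 or 3 of 4 weeks or replicate 1 or 2 of 14 weeks (1.17 to 1.57, adjusted p from 0.0715 to 0.157), nor the second without replicate 1 or 2 of 14 weeks or of 1 year (-1.95 to -1.54, adjusted p from 0.0563 to 0.0871). The share of Acta1 in the actin pair, per length, was 0.674% ± 0.145 (SD, n = 3) at postnatal day 1 and 0.873% ± 0.225 (SD, n = 3) at 4 weeks. It was 2.96% ± 1.08 (SD, n = 3) in hearts of 14 weeks and 2.48% ± 0.562 (SD, n = 3) in those of 1.5 years, with 1.13% ± 0.458 (SD, n = 3) at 1 year between them. Of the stretches of 65 bases in the Acta1 transcript, 1.16% also occur in another gene, and none do in the other 8 genes.

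From 14 weeks to 1.5 years, 5 of the 9 genes rose, Tpm2, Tnnt1, Tnnc1, Tnni3, and Actc1, against 12.8% of all genes changed and 4.91% raised, and the median was 0.69 over the 9 genes and -0.02 over all genes. The log2 fold changes were 1.20 for Tpm2 (SE 0.25, adjusted p = 0.00584), 1.04 for Tnnt1 (SE 0.30, adjusted p = 0.0324), and 0.76 for Tnnc1 (SE 0.20, adjusted p = 0.0186). Those of Tnni3 and Actc1 were 0.69 (SE 0.21, adjusted p = 0.0363) and 0.57 (SE 0.17, adjusted p = 0.0309). In the same comparison 3 of the 8 fibroblast markers rose and none fell (median 0.44), 1 of the 10 cardiomyocyte markers rose and 4 fell (median -0.20), and the mitochondrial share went from between 27.7% and 34.5% to between 18.5% and 26.5%. The cardiomyocyte markers summed to 80706 to 87175 CPM at 14 weeks and to 74133 to 97950 CPM at 1.5 years, which overlapped. The part of the markers and of the mitochondrial share in the rises was not tested. Replicate 3 of 1.5 years was the highest of the 15 hearts for Tnni3, Tnnt1, Tnnt2, Tnnc1, and Tpm1. With offsets for transcript length, Tpm2 alone passed (1.14, adjusted p = 0.0247), and the values of Tnni3, Tnnc1, Tnnt1, and Actc1 were 0.06, 0.02, 0.49, and 0.24. Without replicate 1, 2, or 3 of 14 weeks 1, 2, and 1 genes passed, and without replicate 2 or 3 of 1.5 years 3 and 1.

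From 1 year to 1.5 years, Acta1, Actc1 (0.99, SE 0.17, adjusted p = 0.00794), Tnnc1 (0.90, SE 0.20, adjusted p = 0.0313), and Tnnt1 (1.59, SE 0.31, adjusted p = 0.0177) rose, 4 of the 9, against 2.66% of all genes changed and 0.834% raised. Actc1 was at 7689, 8536, and 6452 CPM at 1 year and at 12962.5, 16408, and 15760.2 at 1.5 years, without overlap. With only the 2 ages in the fit 1 gene passed. Tnnc1 did not pass without any 1 heart of 1 year or without replicate 2 or 3 of 1.5 years (0.66 to 0.95, adjusted p from 0.0638 to 0.138), nor Tnnt1 without replicate 2 or 3 of 1 year or replicate 3 of 1.5 years (1.17 to 1.67, adjusted p from 0.0660 to 0.0780), when 2 genes passed.

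Against postnatal day 1, 8 of the 9 genes differed at 1.5 years, 6 higher and 2 lower, beside 31.8% of all genes, 15.6% higher and 16.3% lower. The gene that did not was Tnnt1 (log2 fold change -0.17, SE 0.30, adjusted p = 0.722). Tnni3 was 4.35-fold (log2 fold change 2.12, SE 0.21) and Tpm1 3.03-fold higher (1.60, SE 0.18), Acta1 6.90-fold (2.79, SE 0.34), Tnnc1 2.40-fold (1.26, SE 0.20), and Actc1 1.86-fold (0.90, SE 0.17). Tnni1 was 192-fold lower (-7.59, SE 0.95) and Tpm2 1.90-fold lower (-0.92, SE 0.25). The call of Tpm2 was lost without replicate 2 of postnatal day 1 (adjusted p = 0.0598) or of 1.5 years (adjusted p = 0.0517). By library size Actc1 did not pass (0.30, adjusted p = 0.139), and Tnni3, Tpm1, Acta1, and Tnnc1 were higher by 1.51, 0.99, 2.18, and 0.66 and Tpm2 and Tnni1 lower (-1.54 and -8.19). With length offsets Tnni3, Tnnc1, and Actc1 had log2 fold changes of 1.39, 0.40, and 0.47, each past the test, and Tnnt1 was lower (-0.82, adjusted p = 0.0297).

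The 9 genes together took 3.63% ± 0.309 (SD, n = 3) of all counts of the heart at postnatal day 1 and 4.17% ± 0.827 at 4 weeks. Hearts of 14 weeks and 1 year had 3.26% ± 0.0164 and 3.28% ± 0.117, and those of 1.5 years had 4.96% ± 0.901. Of the counts outside the mitochondrial genome they took 4.13% ± 0.330 at postnatal day 1 and between 4.70% and 6.27% at the later ages. The cardiomyocyte markers summed to 33153 to 38952 CPM at postnatal day 1 and to 74044 to 87778 at 4 weeks. Of these 10 markers 7 rose between the 2 ages and none fell, with a median log2 fold change of 0.95, and their part in the rises of the thin filament genes was not tested.

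In sorted cardiac fibroblasts, 6 of the 9 genes differed across the 5 ages, against 19.9% of all genes tested. From postnatal day 1 to 4 weeks, 5 fell and none rose, Tnni1, Tnnt2, Actc1, Tpm2, and Tpm1, beside 15.5% of all genes changed and 6.2% lowered. The median log2 fold change was -2.11 over the 9 genes and 0.00 over all genes. In the same samples 5 of the 10 cardiomyocyte markers fell and none rose, with a median of -2.56, and their sum went from 750 to 949.5 CPM at postnatal day 1 to 436 to 454 CPM at 4 weeks, with none of the 10 at or under 3 counts in every sample of an age. By library size, the marker Atp2a2 had a mean of 301 CPM at postnatal day 1 and of 352 CPM at 4 weeks. Each of the other markers had a lower mean at 4 weeks, so that the sum fell less than they did. The part of cardiomyocyte RNA in the values of the thin filament genes was not tested.

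**Figure D3:**
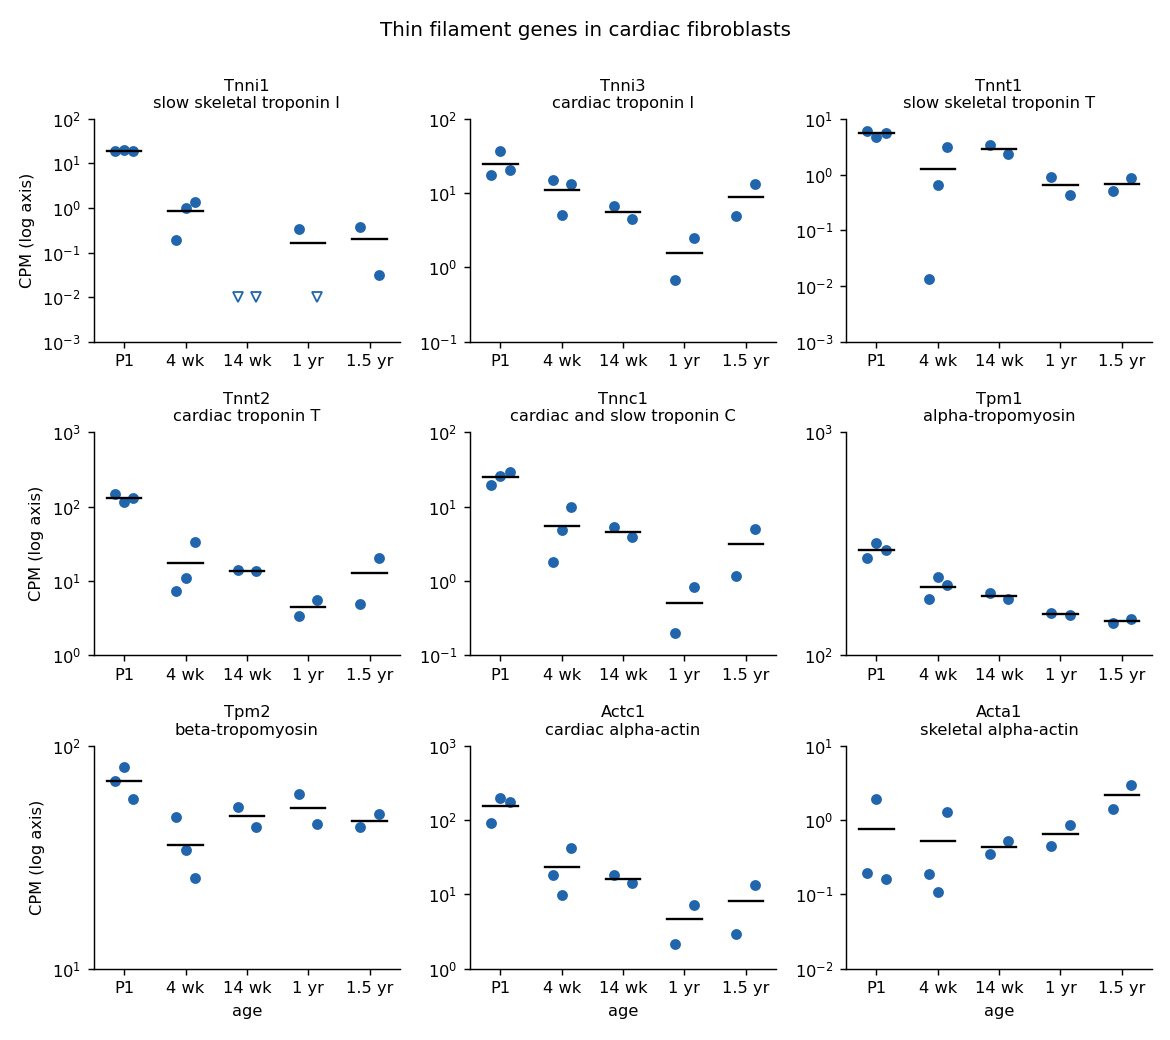
CPM on a log axis of the 9 thin filament genes in each sample of PDGFRα cardiac fibroblasts at postnatal day 1 (P1), 4 and 14 weeks, and 1 and 1.5 years, where points are samples, lines are means of 3 or 2 samples, and open triangles at 0.01 stand for samples with no counts. Tnni1, Tnni3, Tnnt1, Tnnt2, Tnnc1, Tpm1, and Actc1 are highest in the 3 samples of postnatal day 1. Over all ages Tpm1 and Tpm2 lie within 139 to 317 and 25.6 to 80.3 CPM.

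Among the troponins, Tnni1 was at 18.6, 19.5, and 19.3 CPM in the fibroblast samples of postnatal day 1 and at 0.188, 0.994, and 1.35 at 4 weeks (log2 fold change -4.50, SE 1.24, adjusted p = 0.0292). All samples of 4 weeks were lower, but the adjusted p was from 0.0538 to 0.0809 without any 1 of the 6 samples. No read was counted on Tnni1 in either sample of 14 weeks, so that the level at 14 weeks was at least 414-fold lower than at postnatal day 1 against a floor of 3 counts per library, which covers counting error only. Tnni1 was at 0.329 and 0 CPM in replicates 4 and 5 of 1 year and at 0.374 and 0.0312 in those of 1.5 years. Tnnt2 was at 147, 115, and 129 CPM at postnatal day 1 and at 7.42, 10.9, and 33.5 at 4 weeks, without overlap (log2 fold change -2.91, SE 0.56, adjusted p = 0.00338). Tnnc1 had values of 19.3, 25.4, and 29.4 CPM and then of 1.77, 4.81, and 9.92, which did not overlap (log2 fold change -2.17, SE 0.70, adjusted p = 0.0545). It passed with DESeq2 (adjusted p = 0.00873) and, in edgeR, with only the 2 ages fitted (adjusted p = 0.0312) and without replicate 3 of 4 weeks (adjusted p = 0.0285). Tnni3 and Tnnt1 had log2 fold changes of -1.18 (SE 0.56, adjusted p = 0.186) and -2.11 (SE 1.27, adjusted p = 0.283).

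Of the actins, Actc1 was at 90.5, 198, and 173 CPM in fibroblasts of postnatal day 1 and at 18.2, 9.71, and 42.2 at 4 weeks, a fall without overlap (log2 fold change -2.72, SE 0.64, adjusted p = 0.0110). The adjusted p of Actc1 was 0.0527 without replicate 1 of 4 weeks, when 3 of the 9 genes passed. Acta1 was at or below 2.99 CPM in all 12 samples.

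Nonmuscle cells are known to use products of both tropomyosin genes, and per transcript length Tpm1 had the highest mean level of the 9 genes in fibroblasts at each age from 4 weeks on. Tpm1 was at 274, 317, and 297 CPM at postnatal day 1 and at 179, 225, and 206 at 4 weeks, lower in every sample (log2 fold change -0.54, SE 0.12, adjusted p = 0.00664). Tpm2 was at 69.6, 80.3, and 57.4 CPM and then at 47.8, 34.0, and 25.6 (log2 fold change -0.95, SE 0.23, adjusted p = 0.0121). In the order of the 3 later ages Tpm1 had means of 185 ± 9.02, 153 ± 2.47, and 142 ± 4.92 (SD, n = 2) CPM, and Tpm2 of 48.2 ± 6.80, 52.7 ± 11.4, and 46.2 ± 4.45 (SD, n = 2). The 8 smooth muscle and pericyte markers, which mark cells that also express Tpm2, summed to 557 to 718 CPM at postnatal day 1 and 364 to 452 at 4 weeks, and 5 of them fell and 1 rose. Their part was not tested.

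None of the 9 genes passed the test with edgeR between neighbouring later ages of fibroblasts or from 14 weeks to 1.5 years, against 3.87% of all genes from 4 to 14 weeks, 1.78% from 14 weeks to 1 year, 0.24% from 1 year to 1.5 years, and 2.72% from 14 weeks to 1.5 years. In that order, 1, 5, 3, and 2 genes had an unadjusted p under 0.05, and 1, 2, 1, and 1 passed with DESeq2. The shares of all genes above are for the adjusted p of edgeR, so these counts have no share beside them. The later ages had 2 samples each. Against postnatal day 1, 5 genes were lower at 1.5 years, beside 16.3% of all genes changed and 6.46% lowered, with a median of -2.98 over the 9 genes and 0.00 over all genes. They were Tnni1 (log2 fold change -6.55, SE 1.66, adjusted p = 0.0181), Actc1 (-4.23, SE 0.81, adjusted p = 0.00287), Tnnt2 (-3.36, SE 0.68, adjusted p = 0.00403), Tnnc1 (-2.98, SE 0.85, adjusted p = 0.0300), and Tpm1 (-1.06, SE 0.13, adjusted p = 1.3e-04). Of the cardiomyocyte markers 5 were lower and 1 higher in this comparison, with a median of -2.82, and their part was not tested. Tnni1 did not pass without replicate 5 of 1.5 years (adjusted p = 0.102), nor Tnnc1 without replicate 2 or 3 of postnatal day 1 or replicate 4 of 1.5 years (adjusted p from 0.0540 to 0.178). Together the 9 genes took 0.0773% ± 0.00684 (SD, n = 3) of the fibroblast counts at postnatal day 1, 0.0301% ± 0.00310 (SD, n = 3) at 4 weeks, and 0.0207% ± 0.00346 (SD, n = 2) at 1.5 years.

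Levels in fibroblasts were set against those in hearts of the same age, both as CPM of the library total with no TMM scaling. At postnatal day 1 the fibroblast level was between 0.915% and 1.42% of the heart level for Tnni1, Tnni3, Tnnt2, Tnnc1, Actc1, and Acta1, and the median of the 10 cardiomyocyte markers was 1.24% (range 0.852% to 7.27%). At 4 weeks Tnni3, Tnnt2, Tnnc1, and Actc1 were at 0.197% to 0.235%, beside a marker median of 0.146%. At 1 year the same 4 genes were at 0.0226% to 0.0659%, beside 0.0437%. At 1.5 years Tnni3 and Tnnt2 were at 0.0997% and 0.117%, Tnnc1 at 0.0691%, and Actc1 at 0.0534%, beside a marker median of 0.144%. All but Actc1 at 1.5 years, which was below the lowest marker at 0.0672%, lay within the range of the markers at these 4 ages. Tpm1 was at 5.02% at postnatal day 1 and between 1.05% and 2.02% at the later ages. Only 1 marker, Atp2a2, was higher, at 7.27% at postnatal day 1 and between 3.26% and 6.68% later. The highest of the other markers was Ryr2 at postnatal day 1, at 1.80%, and over the later ages Pln at 14 weeks, at 0.418%. Tpm2 had the highest percentage of the 9 genes at every age. It was at 68.6% of the heart level at postnatal day 1 and at 130%, 349%, 201%, and 115% at the 4 later ages. On this scale fibroblasts thus had the higher mean of Tpm2 from 4 weeks on. Samples overlapped at 4 weeks, with 25.4 to 48.6 CPM in fibroblasts and 19.9 to 32.3 in hearts. They also overlapped at 1.5 years, with 39.7 to 45.6 and 29.5 to 48.4 CPM, but not at 14 weeks or 1 year. Mitochondrial genes took 1.74% to 9.18% of fibroblast counts, against 10.8% to 34.5% in hearts. Their part in these percentages was not tested. From postnatal day 1 to 1 year Tnnt1 was at 12.3%, 4.16%, 24.5%, and 6.93%, each above the highest marker of that age. The value at 4 weeks rests on fibroblast replicate 3, with 3.10 CPM on this scale, against 0.0136 and 0.666 in replicates 1 and 2. At 1.5 years Tnnt1 was at 2.30%, and its fibroblast mean on this scale was at most 5.83 CPM. Tnni1 was at 55.5% at 4 weeks, where its mean on this scale was 0.848 CPM in fibroblasts and 1.53 in hearts. At 1 year Tnni1 was at 7.27%, also above the highest marker, with no counts in fibroblast replicate 5.

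**Figure D4:**
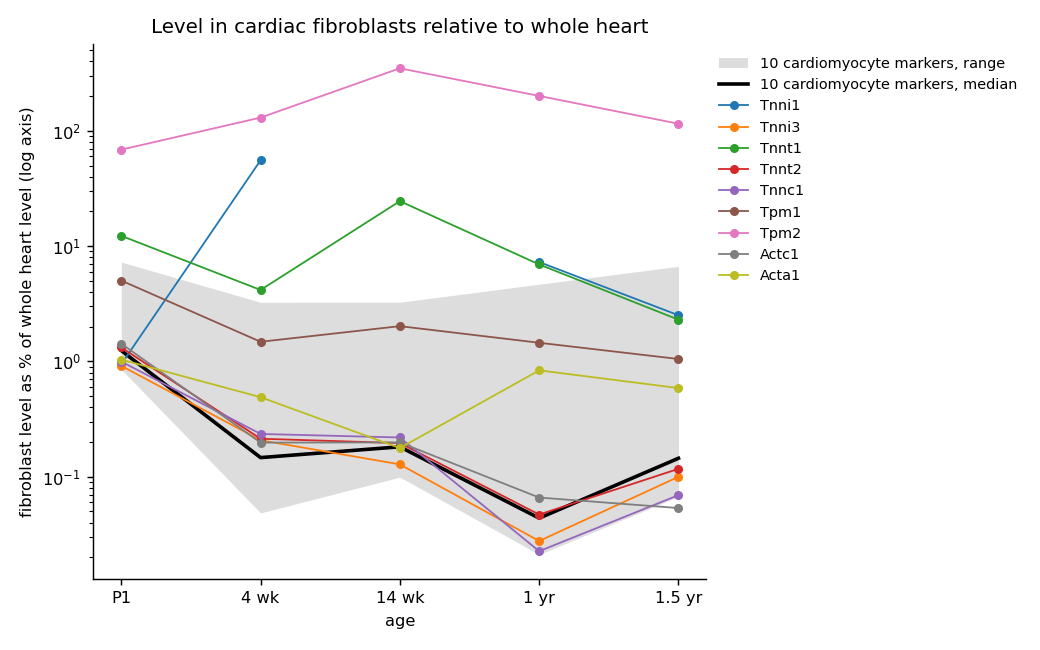
Mean level in cardiac fibroblasts as a percentage of the mean level in whole heart at the same age, on a log axis, for the 9 thin filament genes (coloured points and lines), with the median (black line) and range (grey) of 10 cardiomyocyte markers, where Tnni1 has no point at 14 weeks because no read was counted. Tnni3, Tnnt2, Tnnc1, and Actc1 lie at 0.915% to 1.42% at postnatal day 1, at 0.0226% to 0.0659% at 1 year, and at 0.0534% to 0.117% at 1.5 years, where Actc1 is below the lowest marker, and Tpm2 lies at 68.6% or above at every age.

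A fit over the 27 samples with a term for tissue by age asked whether fibroblasts and hearts changed unequally over the postnatal weeks up to 4 weeks. They did for 6 of the 9 genes, against 7.14% of all 20650 genes tested, with 1 of the 6 differences above 0 and 5 below 0, against 3.18% and 3.96% of all genes. For Tpm1 the fibroblast change was lower than the heart change by a log2 difference of -2.19 (SE 0.24, adjusted p = 2.8e-06), for Tnnt2 by -3.06 (SE 0.58, adjusted p = 0.00143), and for Actc1 by -3.29 (SE 0.66, adjusted p = 0.00234). Tnni3 and Tnnc1 had differences of -2.57 (SE 0.57, adjusted p = 0.00595) and -2.52 (SE 0.64, adjusted p = 0.0158). Tnni1 fell in both tissues and less in fibroblasts, by 5.44 (SE 1.22, adjusted p = 0.00656). For Tpm2, which fell in both, the difference was 0.50 (SE 0.37, adjusted p = 0.487). The median difference was -2.19 over the 9 genes and 0.17 over all genes, and library size as the only scaling moved the latter by 0.43. The study took fibroblasts from the hearts it sequenced, but no source used here ties a fibroblast sample to a heart by number. A fit with replicate number and age as a block for the animal used only the samples of postnatal day 1 and 4 weeks. In it 5 genes passed, without Tnni3 (-2.63, adjusted p = 0.0619). The part of the block and that of the fewer samples were not told apart. In the fit over all ages and with no block, 8 genes passed without fibroblast replicate 3 of 4 weeks, with Tnnt1 (-3.85, adjusted p = 0.00646) and Acta1 (-3.29, adjusted p = 0.0492) in addition.

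**Figure D5:**
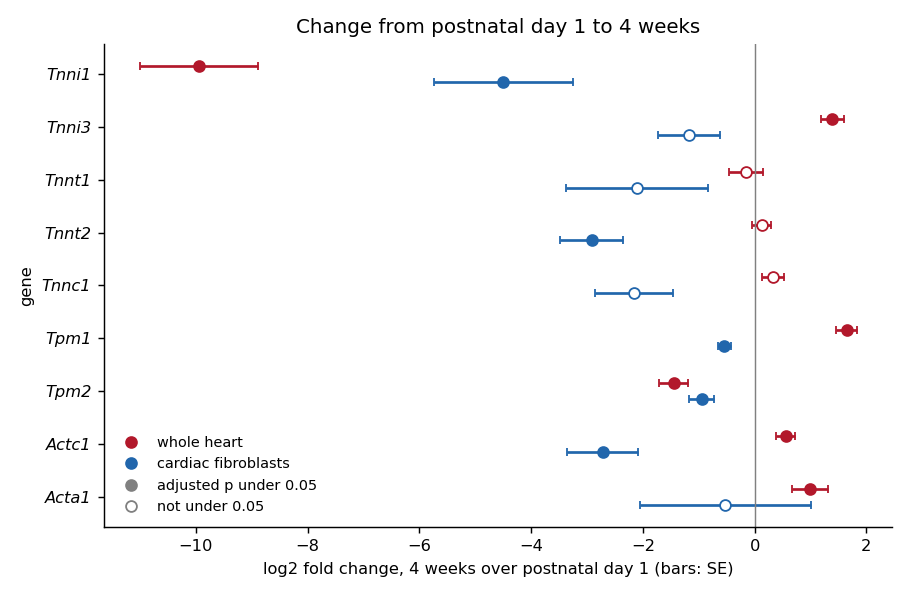
Log2 fold change, 4 weeks against postnatal day 1, for the 9 genes in whole heart (red) and cardiac fibroblasts (blue), with bars of 1 SE, where filled points passed an adjusted p under 0.05 and open points did not. Tpm1 and Actc1 rose in heart and fell in fibroblasts, and Tnni1 and Tpm2 fell in both.

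Other genes of the sarcomere were counted in the same fits. Among 32 further genes of the thin filament and of actin assembly, 8 rose and 3 fell in the heart from postnatal day 1 to 4 weeks, with a median of 0.18, beside 12.1% of all genes raised, 6.1% lowered, and a median of -0.09. Xirp2, which binds actin at intercalated discs, went from 12.9 ± 2.06 to 356 ± 225 (SD, n = 3) CPM (log2 fold change 4.78, SE 0.49, adjusted p = 2.8e-06), and Tmod4, which caps the pointed end of the filament, rose by 3.40 (SE 0.32, adjusted p = 9.8e-07). Capza1, a subunit of the barbed end cap, and Cfl1, the nonmuscle cofilin that severs actin, fell, with log2 fold changes of -1.16 (SE 0.25, adjusted p = 0.00381) and -0.64 (SE 0.19, adjusted p = 0.0245). Of 26 genes of the thick filament, titin, and Z-disc tested, 15 rose and 4 fell, with a median of 0.68. Myh7, the β-myosin heavy chain known to be replaced after birth in the mouse, went from 4150.4 ± 1548 to 27.1 ± 5.27 (SD, n = 3) CPM (log2 fold change -7.26, SE 0.62, adjusted p = 4.4e-07), and Myh7b also fell (-1.21, SE 0.31, adjusted p = 0.0111). Myot (2.49, SE 0.26, adjusted p = 4.0e-06) and Tcap (2.05, SE 0.18, adjusted p = 4.1e-07), both of the Z-disc, rose. Of 12 splicing regulators, none rose and 3 fell, with a median of -0.28, Srsf1 (-0.68, SE 0.21, adjusted p = 0.0341) and Rbm24 (-0.67, SE 0.18, adjusted p = 0.0121) among them. From 14 weeks to 1.5 years, 5 of these further thin filament genes rose and 7 fell, with a median of -0.06, beside 12.8% of all genes changed and a median of -0.02.

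The genes whose log2 CPM ran most alike with a thin filament gene over the 15 hearts are given by Pearson's r across 13236 genes, as a description, since the points share libraries and 3 hearts per age. For Tnni1 they were Cdk4 (r = 0.956), a kinase of the cell cycle, and Tead2 (r = 0.953), a TEAD factor. For Tnni3 they were Prdx5 (r = 0.996), a mitochondrial peroxiredoxin, and Ndufs7 (r = 0.995), a subunit of complex I, and for Tpm1 Uqcrc1 (r = 0.973), a subunit of complex III, and Syngr2 (r = 0.973). Tpm2 ran most alike with Prdx4 (r = 0.958) and Tmsb10 (r = 0.954), which binds monomeric actin, and Tnnt1 with Rhoc (r = 0.937) and Tubb6 (r = 0.918). Tnnc1 was closest to Acot7 (r = 0.973) and Eef1d (r = 0.972), and Tnnt2 to Hint2 (r = 0.921) and Anapc13 (r = 0.905). The closest genes were Cd81 (r = 0.903) and Rhoa (r = 0.900) for Actc1, and Pkdcc (r = 0.890) and Adprhl1 (r = 0.888) for Acta1. Within the 9 genes, Tnni3 and Tpm1 had an r of 0.935 and Tnni1 and Tpm1 of -0.876. Of 13 tested genes that flank a member, 1 rose and none fell between postnatal day 1 and 4 weeks in the heart. Of all genes 12.1% rose and 6.1% fell. The gene was Stab1 (log2 fold change 1.21), 39670 bases from Tnnc1.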

How the data were processed

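PolyA RNA of 15 whole heart samples and 12 cardiac fibroblast samples was sequenced by the authors as single-end reads, which were aligned with STAR 2.5.3a to mm10 with gene counting by the aligner. The deposited values are raw counts per gene. The strand setting and the gene annotation are not given in the sources used here. Genes were matched by symbol to GENCODE M21 (GRCm38) for position and length, which gave a length for 95.4% of the symbols.

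Counts were filtered with filterByExpr, scaled by TMM, and tested in edgeR 4.0.16 (R 4.3.3) by the quasi-likelihood F test, with 1 fit per tissue over all ages and Benjamini-Hochberg adjustment over all genes tested. Standard errors were derived from each change and its F value. A further fit over 27 samples tested the difference between tissues. Shares of a pair were compared by exact permutation tests in scipy 1.17.1. Replicates are separate samples in the labels. The study gives its number of animals per time point and takes fibroblast sets from different hearts, but the labels tie no sample to an animal. Whether samples of postnatal day 1 and 4 weeks, which all held both Xist and Ddx3y, pool animals is not given in the sources used here. The p-values thus measure only the spread between samples. None of 24 same-group pairs held identical values. The scripts were tested on simulated data. The members and gene lists were chosen with earlier results of these data known. Named are all 9 members, the 2 genes with the largest change per list and direction, without overlap, in hearts from postnatal day 1 to 4 weeks, and the 2 genes most alike with each member. Of the listed genes, Myozap, Myl1, Myh1, Myh4, and Myod1 were not analysed here.

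Alternatives were DESeq2 1.42.0, its size factors, library size only, no filter, at least 10 counts in every sample, only the 2 ages compared, no mitochondrial genes, offsets for transcript length, a replicate block, and leaving out each sample in turn. At these depths 3 counts were between 0.0391 and 0.0651 CPM.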

Additional observations from a re-analysis of the deposited data

Results flagged for a closer look

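For 6 genes whole heart and fibroblasts changed unequally between postnatal day 1 and 4 weeks, by a test of the difference itself. On the log2 scale, fibroblasts minus whole heart, the values were 5.44 for Tnni1, -2.57 for Tnni3, -3.06 for Tnnt2, -2.52 for Tnnc1, -2.19 for Tpm1, and -3.29 for Actc1. The value of Tnni3 did not pass with a replicate block, fitted on samples of these ages only (-2.63, edgeR, adjusted p = 0.0619). The median log2 fold change of the 10 cardiomyocyte markers was -2.56 in fibroblasts, where Tnni1, Tnnt2, Tpm1, and Actc1 fell and Tnni3 and Tnnc1 did not pass the test, and 0.95 in hearts. Their part was not tested.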

How the results depend on the processing

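Of the values of single genes under an alternative, 698 kept their direction and their side of the threshold, 85 lost the call, 12 gained one, and 9 reversed. By library size, in hearts, Tnnt2 and Tnnc1 at 4 weeks against postnatal day 1 were -0.38 and -0.17. Tnnt2 at 1.5 years against postnatal day 1 was -0.080 by library size, -0.052 with length offsets, and -0.060 with the replicate block and length offsets. With 1 heart left out, Tnnt1 against postnatal day 1 ranged from -0.33 to 0.074 at 4 weeks, the latter without replicate 1 of 4 weeks, and from -0.59 to 0.018 at 1.5 years, the latter without replicate 1 of 1.5 years. With 1 sample left out, Acta1 ranged from -2.34 to 1.52 in fibroblasts and from -3.29 to 0.52 for the difference between tissues, the higher values being without fibroblast replicate 2 of postnatal day 1. The Tnni1 share at 1.5 years minus 14 weeks ranged from -0.0019 to 0.0926 percentage points with 1 heart left out.

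The shares of all genes given above are those of the main edgeR fit. Numbers of the 9 genes under other settings, here and elsewhere, have no such share beside them. In hearts, the number of the 9 genes that changed from 4 to 14 weeks was 2 with DESeq2, 2 with the replicate block and length offsets, and 0 with only the 2 ages. From 14 weeks to 1 year it was 2 with length offsets, with or without the block, and 2 with only the 2 ages. From 14 weeks to 1.5 years it was 1 with length offsets, with or without the block, and 3 with only the 2 ages, and from 1 year to 1.5 years 1 with only the 2 ages. With 1 sample left out, the numbers in hearts ranged from 4 to 6 for 4 weeks against postnatal day 1, 0 to 1 for each of the next 2 steps, 1 to 5 for 1.5 years against 14 weeks, 2 to 5 against 1 year, and 6 to 8 against postnatal day 1. In fibroblasts they ranged from 3 to 5 at 4 weeks and from 4 to 5 at 1.5 years against postnatal day 1, and for the difference between tissues from 6 to 8. In fibroblasts DESeq2 gave 1 from 4 to 14 weeks, as did no filter, 2 from 14 weeks to 1 year, as did only the 2 ages, and 1 for 1.5 years against 14 weeks and against 1 year. The fall of the Tnni1 share after birth was 42.7 percentage points in counts, 51.1 with the shortest transcripts, and 35.7 to 38.6 with 1 heart left out. The cause of these differences was not tested.

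Deviations of same-numbered samples of different ages correlated from -0.127 to 0.220 in hearts and from -0.0530 to 0.127 in fibroblasts, and those of the heart and the fibroblast sample with the same number and age from -0.0562 to 0.0379, so that the numbers were not taken to pair samples. With the replicate block 5 genes changed in hearts from postnatal day 1 to 4 weeks and 6 in fibroblasts. The difference between tissues for Tnni3, with the block and fitted on samples of these ages only, was -2.63 (edgeR, adjusted p = 0.0619). No block could be fitted for 14 against 4 weeks and 1.5 years against postnatal day 1 in fibroblasts, which share no replicate number. The later fibroblast ages have 2 samples each.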
